A study of Mus musculus with 24 samples.

Results

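The comparison described here is that of mouse stroma from tumours whose cells carried a hairpin against EGR2 with stroma from tumours carrying the control hairpin PLKO, all in mice on a diet rich in palmitic acid, the PA-rich diet. Its arrays were chosen by their labels, 9 of the 24 arrays of the series: 3 of shEGR2_40.9, 3 of shEGR2_38.9 and 3 of PLKO. The effect of a gene is the mean of both EGR2 hairpins minus PLKO on the log2 scale of the RMA values, and a difference from PLKO on the PA-rich diet was claimed only where each hairpin alone gave the same call. Results on the control diet, between diets and against shGAL are means of both hairpins unless a hairpin is named. Each of 11844 genes above a floor for dim probe sets was tested.

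The tumours were orthotopic xenografts of SCC25 cells (a squamous carcinoma line from human tongue) in NOD-SCIDγ (NSG) mice, which lack mature lymphocytes. The RNA came from the cells of the tumour stroma called the neural fraction in the labels, and was isolated with magnetic beads and read on Affymetrix mouse arrays. PLKO is a non-targeting short hairpin RNA, shEGR2_40.9 and shEGR2_38.9 are different hairpins against EGR2, and the series also has tumours with shGAL, a hairpin against GAL, and every hairpin on a control diet. There were 8 groups, each with 3 arrays that the series names technical replicates. Each group stands for 1 hairpin in 1 tumour line, and whether its arrays came from 1 or several animals is not stated, so that p-values measure only the spread between these arrays.

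EGR2, also called Krox20, is a zinc finger transcription factor best known for switching Schwann cells to myelination, and it also acts in immune cells. Here the hairpins sat in the human tumour cells while the arrays carried mouse probes, so that mouse Egr2 is no check of the silencing. Changes are described as those of the surrounding stroma, although a part from human tumour RNA on mouse probes was not tested. Interferons are secreted signals that make cells induce a set of antiviral genes. The circadian clock is a feedback loop in which CRY and PER proteins repress the factors that drive their own genes, while the NR1D receptors add a further repressive arm.

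Mouse Egr2 was measured at 11.66, 11.66 and 11.60 in the PLKO arrays, 11.77, 11.85 and 11.84 with shEGR2_40.9 and 11.48, 11.28 and 11.32 with shEGR2_38.9, all as log2 RMA values. The hairpins thus lay on opposite sides of PLKO, by 0.18 and -0.28, and neither difference passed the test (limma, adjusted p = 0.439 and 0.382). Of 17 listed markers of Schwann and glial identity, 15 had a probe set and 9 were above the floor of 6.27. Sox10 (mean over all arrays 7.50), Erbb3 (11.02) and Ngfr (8.26) were among these, but S100b (5.84), Gfap (5.34), Foxd3 (5.39) and Fabp7 (5.40), as well as the neurofilament genes Nefl (5.10) and Nefm (4.45), were below it. All 17 vascular endothelial markers and 17 of 18 keratinocyte markers with a probe set were above the floor. Whether human tumour RNA bound to mouse probes was not tested. One array outside the comparison stood apart, the control-diet replicate 3 of shEGR2_38.9, with a mean log2 value of 7.09, where the other arrays had 7.15 to 7.17. The 3′ minus 5′ difference of its Gapdh probe sets, a measure of RNA quality, was 0.76, where the other arrays had -0.12 to 0.08, and its mean correlation with its own group was 0.978. It entered the shared estimate of the spread, and counts without it are given.

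With both EGR2 hairpins, antiviral genes such as Rsad2, Usp18 and Igtp were higher than with PLKO, the clock gene Cry1 was higher, and the clock repressor gene Nr1d2, the oxysterol enzyme gene Ch25h and the death receptor gene Fas were lower. In the mean of both hairpins 132 genes passed the test (1.11%), 94 higher (0.794%) and 38 lower (0.321%), and their median absolute change was 0.44. Of the 132, 124 had the same sign with each hairpin. These genes were picked by that mean and both hairpins share the PLKO arrays, so this is no independent support. The hairpins differed from each other for 49 of the 132. Each hairpin alone passed the test in the same direction for 25 genes (0.211%), 18 higher (0.152%) and 7 lower (0.0591%). For all 25, the 6 EGR2 arrays lay beyond the 3 PLKO arrays on 1 side, a separation that 1085 genes (9.16%) showed in all, 560 upward (4.73%) and 525 downward (4.43%). The PLKO group on the PA-rich diet, which all these differences share, was for some of the 25 genes the extreme of the 8 groups. It was the lowest for 9 of the 18 higher genes (Rsad2, Ryr1, Hdc, Igf2, Cry1, Tubb3, Fblim1, Fyn and Kif21b). It was the highest for 4 of the 7 lower genes (Gadd45g, Spry1, Fas and Ch25h). The 25 genes were called for PLKO lying below or above both EGR2 groups on this diet, so these counts partly follow from the call. The share over all genes is not given here. The other 107 genes were called with shEGR2_40.9 alone (93), with shEGR2_38.9 alone (6), with neither (6) or with opposite signs (2), and are not claimed as effects of EGR2 hairpins.

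**Figure D1:**
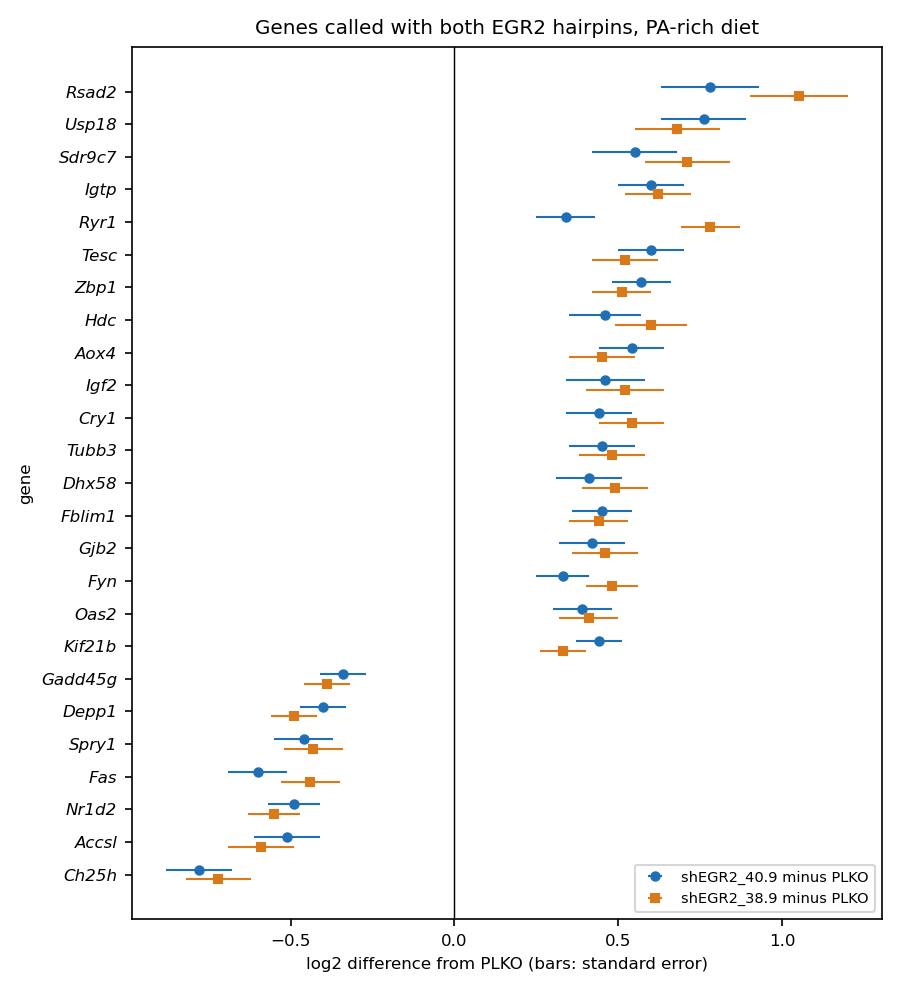
Log2 difference from PLKO on the PA-rich diet (x axis, with its standard error) for the 25 genes called with both EGR2 hairpins (y axis), with circles for shEGR2_40.9 and squares for shEGR2_38.9, each from 3 arrays against 3. The 18 higher genes lie between 0.33 and 1.05 and the 7 lower genes between -0.34 and -0.78, and the markers of the hairpins lie close together for most genes but apart for Ryr1 (0.34 and 0.78).

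The number of genes depended on the arrays used and on the scan batch. The mean change of each of the 25 genes kept its sign in every fit run. In fits without 1 array this was fixed in advance, as the 6 EGR2 arrays of each gene lay beyond its 3 PLKO arrays. With the scan batch as a fixed block 71 genes remained past the test in the mean and 7 with both hairpins, namely Rsad2, Igtp, Cry1, Gadd45g, Depp1, Nr1d2 and Ch25h. Within the batch that shEGR2_40.9 shared with PLKO and the batch that shEGR2_38.9 shared with PLKO, each with 1 array a side, Rsad2 differed by 1.21 and 1.07, Ch25h by -0.89 and -0.72 and Sdr9c7 by 0.15 and 0.71. The sign of these values follows from arrays that do not overlap. The count with both hairpins was 13, 12 and 13 without PLKO replicate 1, 2 or 3, it was 10 and 8 without shEGR2_38.9 replicate 2 or 3, and 43 without the array that stood apart. The mean count was 59, 69 and 62 without PLKO replicate 1, 2 or 3, it was 85 and 87 without shEGR2_38.9 replicate 2 or 3, and 87 and 82 without shEGR2_40.9 replicate 2 or 3. It was 257 without the array that stood apart. The calls of Rsad2, Igtp, Depp1, Nr1d2 and Ch25h with both hairpins held in each of 10 alternative fits and each of 10 fits without 1 array. Without 1 array the call with both hairpins held in 2 of 10 fits for Igf2 and Dhx58, in 3 for Tubb3 and Oas2, in 4 for Aox4, Fyn, Kif21b and Spry1 and in 5 for Sdr9c7, Hdc, Fblim1, Gjb2 and Fas. It held in 6 for Ryr1 and Tesc, in 7 for Usp18 and Gadd45g, in 8 for Cry1, in 9 for Zbp1 and in 10 for Accsl.

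Rsad2 encodes viperin, an antiviral enzyme of the endoplasmic reticulum that interferon strongly induces. Its log2 values were 9.09, 9.65 and 9.95 with PLKO, 10.30, 10.45 and 10.31 with shEGR2_40.9 and 10.71, 10.72 and 10.41 with shEGR2_38.9. All 6 EGR2 arrays were above all 3 PLKO arrays, and PLKO replicate 1 was the lowest array. The rise was 0.92 (SE 0.13, limma adjusted p = 0.000585), a fold of 1.89, with 0.78 for shEGR2_40.9 and 1.05 for shEGR2_38.9.

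Usp18 encodes the protease that removes ISG15 from proteins and restrains the interferon receptor. It was at 8.20, 8.29 and 8.37 with PLKO, at a mean of 9.05 ± 0.07 (SD, n = 3) with shEGR2_40.9 and at 8.99, 9.06 and 8.85 with shEGR2_38.9. The groups did not overlap, and the rise was 0.72 (SE 0.11, limma adjusted p = 0.000998), with 0.76 and 0.68 for the hairpins. The call of Usp18 with both hairpins ended with scan batch as a fixed block and held in 7 of 10 fits without 1 array. Igtp, an immunity-related GTPase induced by interferon gamma, was at 7.42, 7.67 and 7.47 with PLKO, 8.14, 8.22 and 8.01 with shEGR2_40.9 and 8.24, 8.05 and 8.14 with shEGR2_38.9. It rose by 0.61 (SE 0.08, adjusted p = 0.000585), again with no overlap.

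A further 3 genes known to respond to interferon were among the 25, and like Igtp were grouped as such after their values were seen. Zbp1, a sensor of nucleic acids in Z form that can start necroptosis, was at 7.96, 7.94 and 8.11 with PLKO, 8.58, 8.61 and 8.52 with shEGR2_40.9 and 8.48, 8.40 and 8.68 with shEGR2_38.9. Dhx58, which encodes the RNA helicase LGP2, was at 7.94, 8.17 and 8.18 with PLKO, 8.56, 8.47 and 8.48 with shEGR2_40.9 and 8.46, 8.67 and 8.63 with shEGR2_38.9. Oas2, a synthase of the oligoadenylates that activate RNase L, was at 8.37, 8.56 and 8.59 with PLKO, 8.96, 8.81 and 8.94 with shEGR2_40.9 and 8.92, 8.80 and 9.02 with shEGR2_38.9. In each of them the lowest EGR2 array exceeded the highest PLKO array, and the rises were 0.54 for Zbp1 (SE 0.08), 0.45 for Dhx58 (SE 0.09) and 0.40 for Oas2 (SE 0.08). The other probe set of Zbp1 gave 0.03, and with the mean over probe sets the calls of Zbp1 and Dhx58 with both hairpins ended. The call of Dhx58 with both hairpins held in 2 of the 10 fits without 1 array and that of Oas2 in 3.

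The interferon response list, which does not hold Igtp, Zbp1, Dhx58 or Oas2, had 15 tested members. Of these 3 rose in the mean of both hairpins, 0 fell, and 2 (Rsad2 and Usp18) were called with both hairpins. The third, Ifih1, the RNA sensor MDA5, rose by 0.40 (adjusted p = 0.0239) but missed the threshold with shEGR2_38.9 (0.43, adjusted p = 0.0509). The median change of the 15 was 0.16, against -0.00 over all genes. Several members moved little: Mx1 (0.10), Ddx58 (0.08), Irf9 (0.06), Oasl1 (0.01), Ifi27 (-0.04) and Cxcl10 (-0.04) did not pass. The summed signal of the list was 11402 to 12336 in the PLKO arrays, 13158 to 13190 with shEGR2_40.9 and 13217 to 13769 with shEGR2_38.9. On the control diet it was 13828 to 14021 with PLKO, 12353 to 13313 with shEGR2_40.9 and 16812 to 17760 with shEGR2_38.9. Within PLKO, 4 of the 15 genes were lower on the PA-rich than on the control diet and 0 higher, with a median of -0.10. Over all genes 96 were lower and 44 higher in that comparison. In bulk RNA, more cells of a kind and more RNA per cell cannot be told apart, here and for each gene below.

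**Figure D2:**
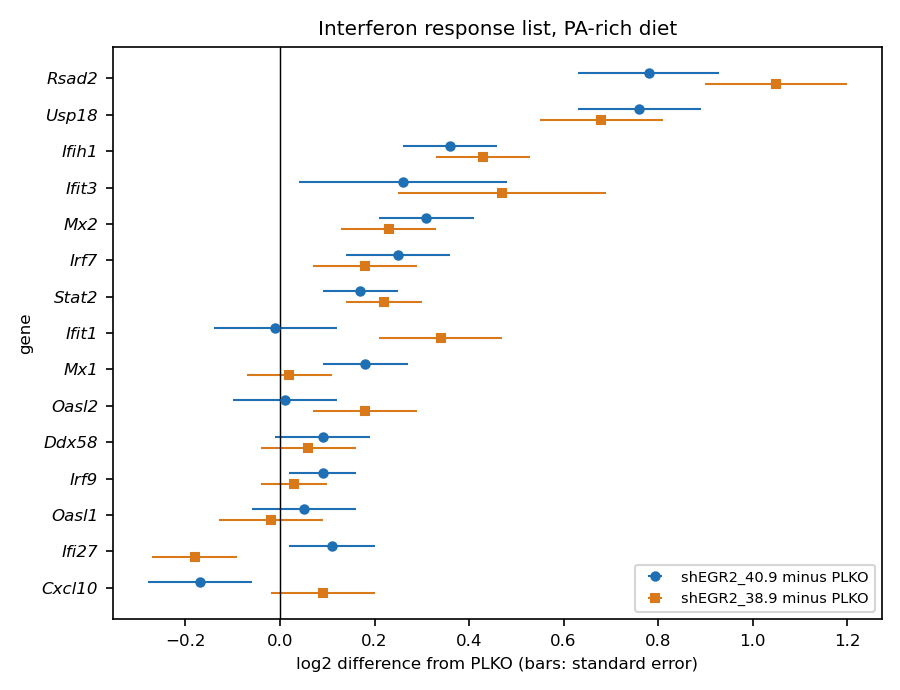
Log2 difference from PLKO on the PA-rich diet (x axis, with its standard error) for the 15 tested genes of the interferon response list (y axis), with circles for shEGR2_40.9 and squares for shEGR2_38.9. Rsad2 (0.78 and 1.05) and Usp18 (0.76 and 0.68) stand apart from the rest, and the lowest members, Ifi27 and Cxcl10, have hairpins on opposite sides of 0.

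The promoters of Rsad2 and Igtp are shown because both genes were called with both hairpins in every alternative fit and because they were the 2 of the 6 interferon-inducible genes above with an entry in the RefSeq promoter table. Capitals mark the interferon-stimulated response element, searched as GAAA, any 2 bases and GAAA on both strands (TTTC, 2 bases and TTTC on the reverse) in the 250 bases before the transcription start, in GRCm38.p6. Both promoters held 1 match, which started 120 bases before the start in Rsad2 and 34 bases before it in Igtp. The 2 sequences, written 5′ to 3′ on the strand of the gene, are chr12:26456453-26456702 (minus strand) and chr11:58199306-58199555 (plus strand).
Rsad2: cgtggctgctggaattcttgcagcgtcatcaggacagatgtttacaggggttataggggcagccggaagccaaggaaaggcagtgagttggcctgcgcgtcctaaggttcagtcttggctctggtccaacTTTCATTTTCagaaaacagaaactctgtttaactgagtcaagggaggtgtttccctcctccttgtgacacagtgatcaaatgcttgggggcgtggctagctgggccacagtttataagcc
Igtp: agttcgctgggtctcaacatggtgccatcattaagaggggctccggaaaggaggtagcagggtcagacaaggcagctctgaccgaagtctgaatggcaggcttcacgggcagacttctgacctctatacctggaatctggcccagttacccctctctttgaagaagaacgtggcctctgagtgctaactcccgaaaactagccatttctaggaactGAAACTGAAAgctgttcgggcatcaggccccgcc
Of 32851 promoters in the table, 2.98% held the motif, and of the 27025 genes there 3.46% had a promoter with it. Among the 25 genes 20 had a promoter there, and 2 of the 20, these same genes, held it. A match is a stretch of letters and no evidence of binding.

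Among clock genes the repressor gene Cry1 was higher and Nr1d2, which encodes the heme-binding repressor REV-ERBβ, was lower with both hairpins. Cry1 was at 8.05, 8.08 and 7.94 with PLKO, 8.54, 8.46 and 8.39 with shEGR2_40.9 and 8.53, 8.54 and 8.62 with shEGR2_38.9. Nr1d2 was at 9.16, 9.01 and 8.98 with PLKO, 8.56, 8.61 and 8.52 with shEGR2_40.9 and 8.58, 8.52 and 8.41 with shEGR2_38.9. Neither gene's groups overlapped, and the changes were 0.49 for Cry1 (SE 0.08, adjusted p = 0.00321) and -0.52 for Nr1d2 (SE 0.07, adjusted p = 0.000585). Of the 14 clock genes tested the other 12 did not pass the test in the mean. Arntl (0.27), Per1 (-0.12), Dbp (-0.09) and Clock (-0.01) were among them, and Per2 passed with shEGR2_40.9 alone (0.56, adjusted p = 0.00238, against 0.09 with shEGR2_38.9). The list's median change was -0.02. The time of day at which tissue was taken is not given in the sources used here.

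The Cry1 promoter is shown because its gene is the clock member that rose and because it holds an E-box, the site through which the clock activators act. Capitals mark the E-box CACGTG, a palindrome, which started 60 bases before the transcription start. The sequence is chr10:85185055-85185304 of GRCm38.p6 (minus strand) from RefSeq, 5′ to 3′ on the strand of the gene.
Cry1: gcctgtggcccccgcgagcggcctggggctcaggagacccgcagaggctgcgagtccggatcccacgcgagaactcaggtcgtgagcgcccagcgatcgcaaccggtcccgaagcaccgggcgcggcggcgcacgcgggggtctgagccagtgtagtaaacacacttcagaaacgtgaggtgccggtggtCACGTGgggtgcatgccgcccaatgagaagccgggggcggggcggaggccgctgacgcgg
The E-box was in 6.02% of the 32851 promoters, and 6.86% of the 27025 genes there had a promoter with it. Of the 20 genes available here 4 had it, Aox4, Cry1, Fas and Gadd45g, of which Cry1 and Aox4 rose and Fas and Gadd45g fell.

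**Figure D3:**
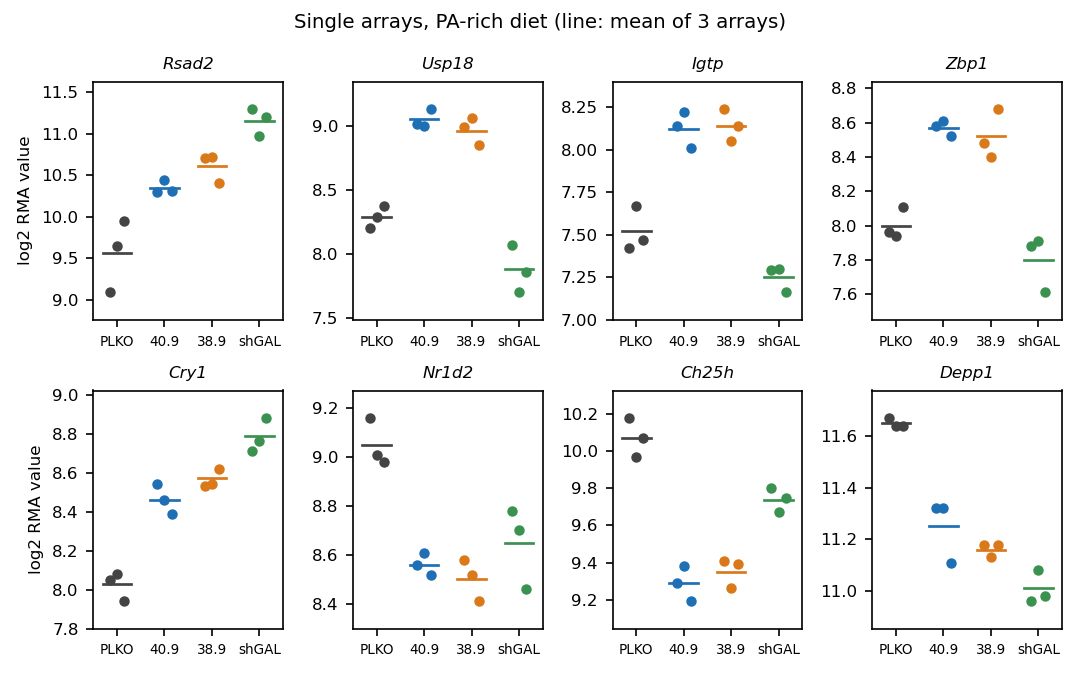
Log2 RMA values (y axis) of single arrays on the PA-rich diet for 8 of the genes called with both EGR2 hairpins, by hairpin (x axis), with 3 arrays per group and a line at their mean. The 3 PLKO arrays lie apart from the 6 EGR2 arrays in every panel, and the shGAL arrays lie beyond the EGR2 arrays for Rsad2 (mean 11.16) but near or below PLKO for Usp18 (7.88) and Igtp (7.25).

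Among the remaining higher genes were Sdr9c7, Gjb2 and Aox4. Sdr9c7, a dehydrogenase that acts on lipids of the epidermal barrier, was at 8.78, 8.54 and 8.37 with PLKO, 8.93, 9.26 and 9.16 with shEGR2_40.9 and 9.31, 9.25 and 9.27 with shEGR2_38.9. It rose by 0.63 (SE 0.11, adjusted p = 0.00348), with shEGR2_40.9 replicate 1 the EGR2 array nearest to PLKO. Gjb2, the gap junction protein connexin 26, was at 10.04, 9.92 and 10.19 with PLKO and between 10.37 and 10.64 in the 6 EGR2 arrays, a rise of 0.44 (SE 0.08, adjusted p = 0.0075). Aox4, an aldehyde oxidase, rose by 0.49 (SE 0.09). Of 17 keratinocyte genes tested 0 were higher and 1 lower (Krt1, -0.62, limma adjusted p = 0.0427), against 0.794% and 0.321% of all genes. So few calls in a list this small are no result about its members. The list's median change was 0.04. Its summed signal was 61264 to 64379 with PLKO, 65957 to 68474 with shEGR2_40.9 and 63157 to 65509 with shEGR2_38.9, and its part in these rises was not tested.

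Tubb3 and Ryr1 were also higher. Tubb3, the tubulin isotype of neurons, was at 8.75, 8.82 and 9.08 with PLKO, 9.39, 9.23 and 9.38 with shEGR2_40.9 and 9.39, 9.38 and 9.33 with shEGR2_38.9. It rose by 0.46 (SE 0.09, adjusted p = 0.0075) and was the 1 of 9 tested neuronal markers called, the list's median change being 0.03. Its call with both hairpins held in 3 of the 10 fits without 1 array. Stmn2 (0.09), Prph (-0.03), Elavl3 (-0.00) and Rbfox3 (-0.14) did not pass. Ryr1, the calcium release channel of the sarcoplasmic reticulum, was at 7.09, 7.34 and 7.35 with PLKO, 7.70, 7.47 and 7.64 with shEGR2_40.9 and 7.92, 8.11 and 8.10 with shEGR2_38.9. It alone among the 25 differed between the hairpins, by 0.44 (SE 0.09, adjusted p = 0.00441), and its other probe set, below the floor, gave -0.11. It was the 1 of 6 tested skeletal muscle markers called.

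Fyn, a Src family kinase that acts in myelinating glia and T cells, rose by 0.40 (SE 0.07, adjusted p = 0.00393). Kif21b, a kinesin motor, rose by 0.39 (SE 0.06), and Fblim1, a filamin-binding protein of cell adhesion sites, by 0.45 (SE 0.08). The growth factor gene Igf2 was at 7.77, 7.58 and 7.67 with PLKO and between 8.03 and 8.31 in the 6 EGR2 arrays, a rise of 0.49 (SE 0.10, adjusted p = 0.0125). Its call with both hairpins held in 2 of the 10 fits without 1 array, and over all fits run its adjusted p in the mean reached 0.229. Hdc, which makes histamine, rose by 0.53 (SE 0.09) and Tesc, a calcium-binding protein, by 0.56 (SE 0.09). These 3 genes have other probe sets above the floor that hardly moved, at 0.12 for Igf2, 0.02 for Hdc and 0.04 for Tesc, and the names of the Hdc and Tesc probe sets used mark probes shared with other transcripts. Of the 25 genes 11 had another probe set above the floor, and 0 of these 12 probe sets had the opposite sign.

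Ch25h had the largest fall among genes called with both hairpins. It makes 25-hydroxycholesterol, which damps cholesterol synthesis and blocks viral entry, and interferon is known to induce it. Ch25h was at 10.18, 9.97 and 10.07 with PLKO, 9.29, 9.38 and 9.19 with shEGR2_40.9 and 9.41, 9.26 and 9.39 with shEGR2_38.9. The groups were far apart, with a fall of 0.75 on the log2 scale (SE 0.08, adjusted p = 9.52e-05), so that it moved opposite to Rsad2 and Usp18.

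Fas, Depp1, Spry1, Gadd45g and Accsl were also lower. Fas, the death receptor, was at 8.41, 8.42 and 8.16 with PLKO, 7.71, 7.79 and 7.68 with shEGR2_40.9 and 7.96, 7.78 and 7.94 with shEGR2_38.9, and changed by -0.52 (SE 0.08, adjusted p = 0.000998). Depp1, a FOXO-induced regulator of autophagy, was at 11.67, 11.64 and 11.64 with PLKO, 11.32, 11.32 and 11.11 with shEGR2_40.9 and 11.18, 11.13 and 11.18 with shEGR2_38.9. The PLKO arrays of Depp1 were almost equal, and its change was -0.44 (SE 0.06, adjusted p = 0.000652). Spry1, an inhibitor of receptor tyrosine kinase signals, was at 11.24, 11.19 and 11.16 with PLKO and between 10.70 and 10.81 in the EGR2 arrays, a change of -0.44 (SE 0.08). Gadd45g, a growth arrest and stress gene, was at 11.39, 11.38 and 11.44 with PLKO and between 10.97 and 11.12 in the EGR2 arrays, a change of -0.37 (SE 0.06). In both genes the groups were clearly separate. Accsl, whose mouse function is little known, changed by -0.55 (SE 0.08, adjusted p = 0.000998). Of 20 immediate early genes tested 0 passed in either direction, with a median of -0.05.

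The shGAL tumours show how the same genes stood with a hairpin against another target. Comparisons of EGR2 and of shGAL hairpins with PLKO share the PLKO arrays, so their values are only set side by side. Against PLKO, shGAL gave 1.59 for Rsad2, 0.88 for Sdr9c7, 0.76 for Cry1, 0.68 for Fyn, 0.66 for Gjb2 and 0.61 for Fblim1, where the EGR2 hairpins gave 0.92, 0.63, 0.49, 0.40, 0.44 and 0.45. It gave -0.63 for Fas, -0.64 for Depp1, -0.54 for Spry1 and -0.40 for Nr1d2, where the EGR2 hairpins gave -0.52, -0.44, -0.44 and -0.52. It gave -0.41 for Usp18, -0.27 for Igtp, -0.20 for Zbp1, -0.20 for Oas2, -0.12 for Dhx58 and 0.35 for Accsl, where the EGR2 hairpins gave 0.72, 0.61, 0.54, 0.40, 0.45 and -0.55.

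Tested directly, the EGR2 hairpins differed from shGAL on the PA-rich diet in 1947 genes (16.4%), 981 higher (8.28%) and 966 lower (8.16%), and in 1292 genes without shGAL replicate 3. Among the 25 genes 7 were higher than with shGAL, 5 were lower and 13 did not pass, where the EGR2 arrays are the same as in the comparison with PLKO. Higher than with PLKO and also than with shGAL were Usp18 (1.13 against shGAL, adjusted p = 2.42e-07), Igtp (0.88, adjusted p = 1.50e-07), Zbp1 (0.75), Oas2 (0.60), Dhx58 (0.57) and Kif21b (0.23). Usp18 was at 8.07, 7.70 and 7.86 and Igtp at 7.29, 7.30 and 7.16 in the shGAL arrays, below every EGR2 array. Lower than with PLKO and also than with shGAL were Accsl (-0.90 against shGAL, adjusted p = 1.31e-07) and Ch25h (-0.42, adjusted p = 0.00122). Rsad2 (-0.68), Cry1 (-0.27) and Fyn (-0.27) were lower than with shGAL and Depp1 was higher (0.20), so that these 4 lay between PLKO and shGAL. Ifih1 was also lower than with shGAL (-0.60, adjusted p = 4.74e-05). Of the 15 tested genes of the interferon response list 6 were higher with the EGR2 hairpins than with shGAL and 5 were lower, with a median of 0.17, and the list's summed signal in the shGAL arrays was 13295 to 13597, within the range of the EGR2 arrays.

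Outside the 25 genes, Il33, Calcb, Mmp13 and Slc1a1 were lower than with shGAL. Il33, an alarmin of barrier cells, was at 9.35, 9.66 and 9.88 with shGAL and between 7.29 and 8.14 in the EGR2 arrays, a difference of -1.94 (SE 0.13, adjusted p = 1.34e-09). Calcb, a calcitonin gene-related neuropeptide, differed by -1.89, the collagenase gene Mmp13 by -1.85 and the glutamate transporter gene Slc1a1 by -2.38. PLKO was at 7.31, 7.78 and 7.88 for Il33, within the range of the EGR2 arrays, and the EGR2 hairpins differed from PLKO by 0.04 for Il33 and -0.10 for Calcb, neither past the test. Of the 21 chemokine and inflammatory genes tested, 11 were lower than with shGAL and 0 higher, with a median of -0.33 against 0.02 over all genes. Of 25 cell cycle genes 17 were higher than with shGAL and 0 lower, with a median of 0.43.

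On the control diet the same hairpins gave far more calls, 2987 genes (25.2%), 1275 higher (10.8%) and 1712 lower (14.5%). The split was 858 higher and 692 lower with only the arrays compared, and 1101 higher and 1043 lower without PLKO control-diet replicate 2. Of the 25 genes 7 were called there in the same direction, 8 in the opposite direction and 10 not at all. Rsad2 (1.07), Hdc (0.60), Fblim1 (0.41), Igf2 (0.39) and Fyn (1.16) were higher on both diets, and Ch25h (-0.38) and Spry1 (-0.31) were lower on both. Nr1d2 was higher on the control diet, by 0.44 (SE 0.07, adjusted p = 0.000102). Sdr9c7 (-0.99), Tesc (-0.57), Gjb2 (-0.52), Ryr1 (-0.43), Aox4 (-0.38) and Tubb3 (-0.31) were lower there, and Accsl (0.30) was higher. Of these 15 genes Hdc, Fyn, Nr1d2 and Ryr1 passed there with each hairpin alone, while Rsad2 passed with shEGR2_38.9 (1.73) and not with shEGR2_40.9 (0.41, adjusted p = 0.073).

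The difference of the EGR2 effect between diets, PA-rich minus control, passed the test for 1154 genes (9.74%), 613 higher (5.18%) and 541 lower (4.57%). The split was 536 higher and 635 lower with a renewed quantile normalization, and 732 higher and 516 lower with arrays centred on their median. Without the array that stood apart 1603 genes passed. Among the 25 genes, whose values on the PA-rich diet enter this difference, 18 passed, and 17 of these passed without that array. Sdr9c7 had the largest of these differences, 1.63 (adjusted p = 1.09e-06). Its group means on the control diet were 9.33 ± 0.20 with PLKO, 9.23 ± 0.03 with shEGR2_40.9 and 7.45 ± 0.14 with shEGR2_38.9 (SD, n = 3), so that the low value there was that of shEGR2_38.9. The summed signal of the keratinocyte list was also lowest in that group, at 46677 to 53203, and its part in this difference was not tested. Rsad2 had no detectable difference between diets (-0.15, SE 0.18, adjusted p = 0.71).

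The effect of the EGR2 hairpins on markers of blood and lymph vessels differed between the diets. Of 17 vascular endothelial markers tested 0 passed on the PA-rich diet, where the median change was 0.25, and 16 were higher on the control diet, where it was 1.29. The effect was lower on the PA-rich than on the control diet for 15 of 17 by the test of that difference. Cdh5, the cadherin of endothelial junctions, was at 10.07 ± 0.18 with PLKO, 11.38 ± 0.15 with shEGR2_40.9 and 12.07 ± 0.07 with shEGR2_38.9 on the control diet. On the PA-rich diet it was at 9.78 ± 0.23, 9.80 ± 0.18 and 10.36 ± 0.03 (SD, n = 3). Its effect was 1.65 on the control diet (adjusted p = 1.44e-08), 0.30 on the PA-rich diet (adjusted p = 0.393) and different between them by -1.36 (SE 0.19, adjusted p = 8.87e-05). Of 8 lymphatic markers 0 passed on the PA-rich diet (median 0.28), 8 were higher on the control diet (median 1.59) and 7 had a lower effect on the PA-rich diet. Without the array that stood apart these counts of differences were again 15 and 7. With array weights or only the arrays compared 4 vascular markers were higher on the PA-rich diet, and 0 with both hairpins. For the lymphatic markers the hairpins differed on the PA-rich diet, with medians of -0.09 for shEGR2_40.9 and 0.59 for shEGR2_38.9. Of these 8 markers 3 were higher with shEGR2_38.9 than with shEGR2_40.9 (2.79% of all genes) and 0 lower.

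**Figure D4:**
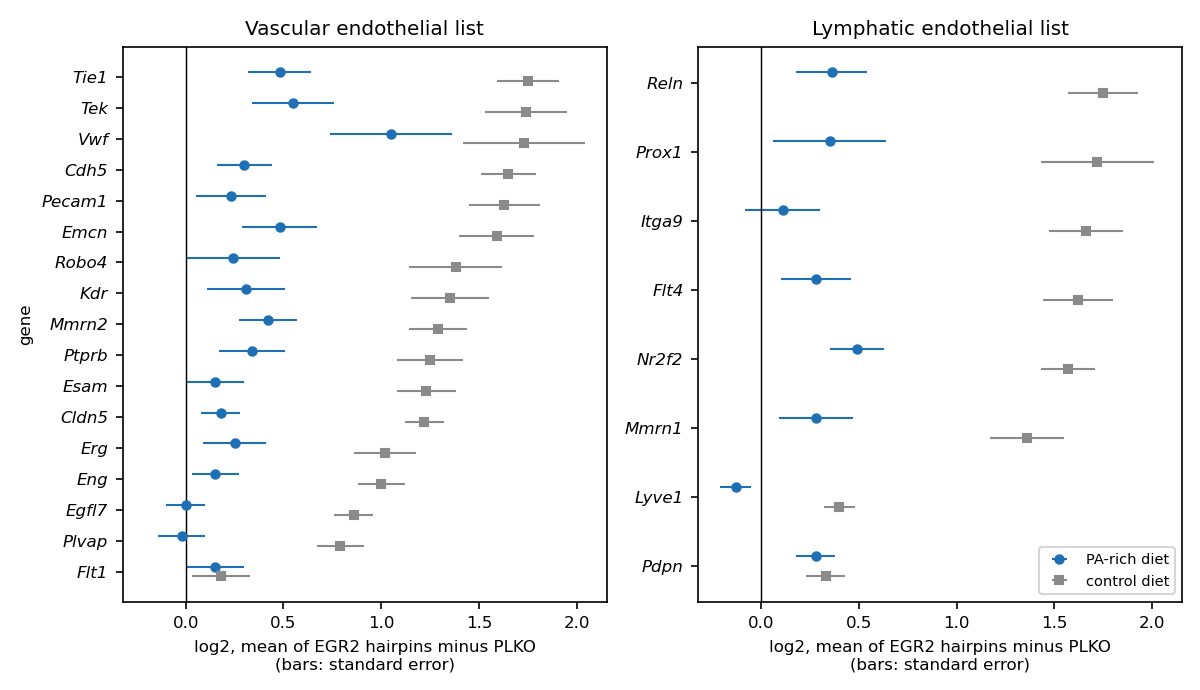
Log2 difference between the mean of both EGR2 hairpins and PLKO (x axis, with its standard error) for 17 vascular (left) and 8 lymphatic (right) endothelial markers, with circles for the PA-rich diet and squares for the control diet. On the control diet 16 of 17 and 8 of 8 genes passed the test, with Cdh5 at 1.65 and Prox1 at 1.72, while on the PA-rich diet the median is 0.25 on the left and 0.28 on the right, with Vwf the farthest at 1.05.

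Genes of the matrix also gave more calls on the control diet. Of 22 basement membrane and matrix genes 1 was lower on the PA-rich diet (Col8a1, -0.26, adjusted p = 0.025) and 0 were higher, whereas 16 were higher on the control diet, and 11 had a lower effect on the PA-rich diet. Among the 6 most negative differences between diets over all genes were Galnt15, a glycosyltransferase (-2.71, adjusted p = 2.71e-05), the sodium channel gene Scn3a (-2.35), the metalloprotease gene Adam12 (-2.17) and Angpt2, an antagonist ligand of the TIE2 receptor (-1.77). On the PA-rich diet none of these 4 passed, with changes of 0.28, 0.50, -0.14 and 0.29. Among the 6 most positive were Lgi2, a secreted neuronal protein (1.94), and Tchh, trichohyalin of the hair follicle (1.84). Tchh was at 7.56, 7.39 and 7.92 with PLKO, 8.86, 9.54 and 9.71 with shEGR2_40.9 and 8.02, 8.22 and 8.89 with shEGR2_38.9. It was the 1 called gene that changed by more than 1 in the mean of both hairpins (1.25, SE 0.23, adjusted p = 0.00584), although shEGR2_38.9 alone did not pass.

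The EGR2 hairpins also differed from each other, among them Myh11, Mylk, Hmox1, Tktl1 and Gap43. On the PA-rich diet 593 genes passed the test between them (5.01%), 331 higher (2.79%) and 262 lower (2.21%) with shEGR2_38.9. Alone against PLKO, shEGR2_40.9 gave 476 genes (4.02%), 300 higher (2.53%) and 176 lower (1.49%), and shEGR2_38.9 gave 74 (0.625%), 58 higher (0.49%) and 16 lower (0.135%). The hairpin difference called 302 and 371 genes without shEGR2_38.9 replicate 2 or 3, it called 344 and 327 without shEGR2_40.9 replicate 2 or 3, and 928 without the array that stood apart.

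Contractile genes of vessel walls were high in the shEGR2_40.9 group. Myh11, the smooth muscle myosin heavy chain, was at 8.39, 8.81 and 7.13 with PLKO, 9.74, 10.04 and 10.41 with shEGR2_40.9 and 7.18, 6.86 and 7.78 with shEGR2_38.9. The shEGR2_40.9 arrays were above all others, and the hairpins differed by -2.79 (shEGR2_38.9 minus shEGR2_40.9, SE 0.35, adjusted p = 2.61e-05). Mylk, the myosin light chain kinase, was at 8.55, 8.52 and 7.42 with PLKO, 9.79, 10.11 and 10.38 with shEGR2_40.9 and 8.21, 8.16 and 8.22 with shEGR2_38.9, a hairpin difference of -1.90 (SE 0.26). Mylk passed in the mean of both hairpins (0.98, adjusted p = 0.0357) through shEGR2_40.9 alone (1.93, against 0.03). Of 10 pericyte and smooth muscle markers tested, 4 were lower with shEGR2_38.9 than with shEGR2_40.9, also including Myl9 (-1.46) and Acta2 (-0.61), and 0 were higher. Rgs5 (0.04), Pdgfrb (0.02) and Des (-0.07) did not pass. The list's summed signal was 4037 to 4947 with PLKO, 6704 to 8104 with shEGR2_40.9 and 3720 to 4027 with shEGR2_38.9.

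**Figure D5:**
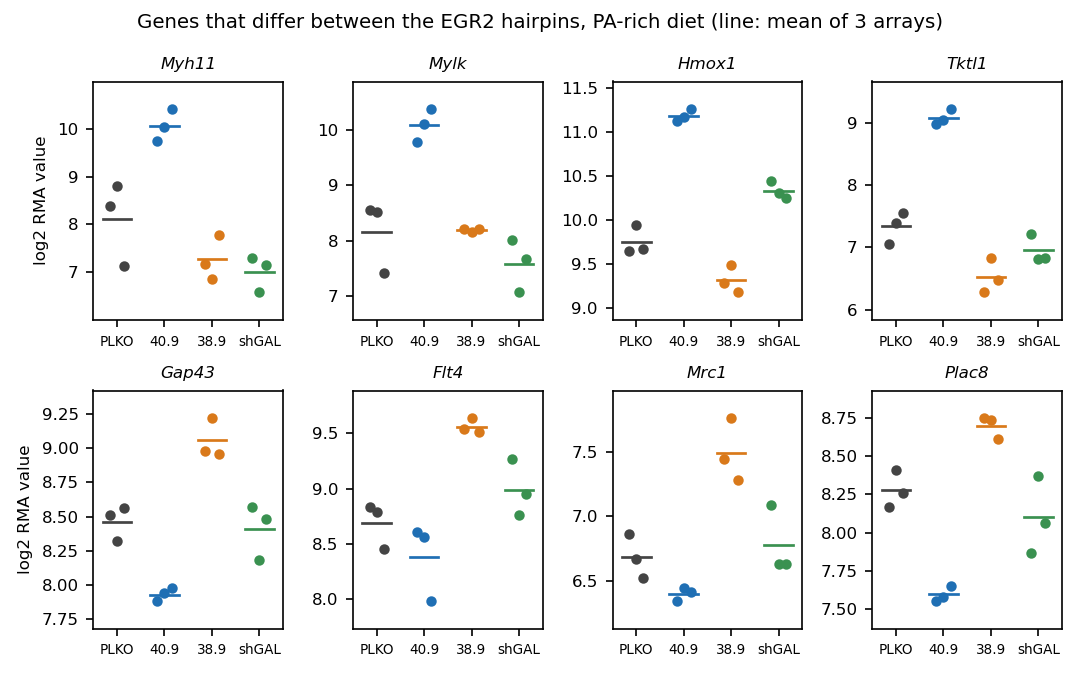
Log2 RMA values (y axis) of single arrays on the PA-rich diet for 8 genes that differed between the EGR2 hairpins, by hairpin (x axis), with 3 arrays per group and a line at their mean. The shEGR2_40.9 arrays are the highest for Myh11, Mylk, Hmox1 and Tktl1 and the shEGR2_38.9 arrays are the highest for Gap43, Flt4, Mrc1 and Plac8.

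Hmox1, the heme oxygenase induced by oxidative stress, was at 9.65, 9.94 and 9.67 with PLKO, 11.12, 11.17 and 11.26 with shEGR2_40.9 and 9.29, 9.49 and 9.18 with shEGR2_38.9. Both hairpins passed against PLKO, in opposite directions, by 1.43 and -0.43, and their mean of 0.50 passed too. Tktl1, a transketolase-like gene, was at 7.05, 7.40 and 7.56 with PLKO, 8.98, 9.04 and 9.22 with shEGR2_40.9 and 6.28, 6.83 and 6.48 with shEGR2_38.9, a hairpin difference of -2.55 (SE 0.15, adjusted p = 1.77e-10). Gap43, a growth cone protein also made by immature Schwann cells, ran the other way. It was at 8.51, 8.32 and 8.56 with PLKO, 7.88, 7.94 and 7.98 with shEGR2_40.9 and 8.98, 9.22 and 8.96 with shEGR2_38.9, so that the hairpins lay on either side of PLKO and differed by 1.12 (SE 0.16, adjusted p = 0.000108). Flt4, the receptor of lymphatic growth factors (1.18), the macrophage mannose receptor gene Mrc1 (1.10) and Plac8 (1.11) were also higher with shEGR2_38.9.

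Some chemokine and guidance genes differed between the hairpins as well. Of 21 chemokine and inflammatory genes 8 were higher with shEGR2_38.9 than with shEGR2_40.9 (2.79% of all genes) and 0 lower (2.21% of all genes). Among the higher were Cxcl2 (0.79, limma adjusted p = 1.77e-05) and Ccl2 (0.70, adjusted p = 0.00226). Against PLKO 5 of the 21 genes were lower with shEGR2_40.9 (1.49% of all genes) and 0 with shEGR2_38.9 (0.135% of all genes). In the mean only Ccl20, a ligand for CCR6, was called (-0.50, adjusted p = 0.000585). Of 34 axon guidance genes 0 were called in the mean of both hairpins, which at 1.11% of all genes is no result about them. Of the 34, 7 were higher with shEGR2_38.9 than with shEGR2_40.9 (2.79% of all genes), such as Sema4d (0.53) and Sema6d (0.53), ligands of plexins. Cell cycle genes were higher with shEGR2_40.9 for 8 of 25 (2.53% of all genes) and with shEGR2_38.9 for 0 (0.49% of all genes), while the test between the hairpins called 1 of the 25, lower with shEGR2_38.9. Ccnb2, cyclin B2, rose by 0.77 with shEGR2_40.9 (adjusted p = 2.04e-05) and was at 0.18 with shEGR2_38.9 (adjusted p = 0.587).

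Lists closest to the label of the samples and to EGR2 itself held few or no calls in the mean of both hairpins. With 1.11% of all genes called, so few calls in lists this small are no result about their members. Schwann and glial identity had 0 of 9 (median -0.08), with Sox10 at -0.08, Erbb3 at -0.04 and Ngfr at 0.12. Of 6 tested myelin genes 1 rose, Mal (0.65, SE 0.14, adjusted p = 0.0146), through shEGR2_40.9 (0.78, against 0.51 with shEGR2_38.9, adjusted p = 0.183), and Mbp was at -0.14. The Egr and Nab list had 0 of 6 called. Fatty acid synthesis had 1 of 14 called, the very long chain elongase gene Elovl4 (0.43, adjusted p = 0.0272, with 0.48 and 0.37 in the hairpins), and cholesterol synthesis 1 of 14, Fdps (0.33, adjusted p = 0.0075, with 0.58 and 0.08). Oxidative phosphorylation (23 genes) and ribosomal protein genes (14 genes) had 0 calls. In all, 23 of the 43 lists held no gene called in the mean and 39 held none called with both hairpins. Over all genes the shares called were 1.11% and 0.211%.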

How the data were processed

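Affymetrix mouse arrays of 24 samples were used, 3 for each of 8 groups of hairpin and diet. The deposited values are log2 values that the authors made with RMA (affy, version not given), per the submitters' processing notes. RMA subtracts background, equalises the arrays and summarises the probes of each set. The values ran from 3.91 to 13.6, with array medians of 6.71 to 6.81. RMA compresses low signals. Precision is limited by the 3 arrays in each group.

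Of 45141 probe sets 28898 carried 1 gene symbol in the platform annotation, 551 several and 15692 none, and 99.28% of the first were matched to RefSeq by Entrez identifier. The brightest probe set stood for each of 17097 genes, and 11844 genes whose mean exceeded the 40th percentile of all probe sets (6.27) were tested. A model with 8 group means over 24 arrays was fitted with limma 3.58.1 in R 4.3.3 (lmFit, eBayes), and adjusted p-values are Benjamini-Hochberg values over the 11844 genes with a threshold of 0.05. A gene was called with both hairpins where the mean contrast and each hairpin alone against PLKO passed with the same sign. The script was tested on simulated data.

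Named genes are the 15 largest rises and 15 largest falls among genes called with both hairpins whose arrays did not overlap, list members so called, defining markers, and the 6 largest rises and falls of the other comparisons. Genes named beyond that rule, such as Fyn, Oas2, Kif21b and examples within lists, were chosen after their values were seen. The comparison and the 43 gene lists (743 names, 666 with a probe set) were chosen with earlier results of these data known.

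Scan batches come from the labels. Same-numbered arrays did not deviate together (residual correlation -0.07 to 0.18 in 9 pairs, 4 of them over 0.1), so the numbers were not taken as pairs. Alternatives were scan batch as a fixed or random block, a replicate block, only the arrays compared, other filters, the mean over probe sets, other normalizations, array weights and leaving out each array.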

Additional observations from a re-analysis of the deposited data

Results flagged for a closer look

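The effect of the EGR2 hairpins differed between diets by a test of the difference itself (limma, PA-rich minus control) for 1154 genes (9.74%). Among the 25 genes called with both hairpins it did so for 18, but their PA-rich values, by which they were called, enter this difference. The 6 largest positive differences among these 18 were 1.63 for Sdr9c7, 1.13 for Tesc, 0.99 for Ryr1, 0.96 for Gjb2, 0.87 for Aox4 and 0.77 for Tubb3. In the mean of both hairpins these 6 genes were higher than with PLKO on the PA-rich diet and lower on the control diet. On the control diet Ryr1 was lower with each hairpin, while Sdr9c7, Tesc, Gjb2, Aox4 and Tubb3 passed with shEGR2_38.9 alone (-1.88, -0.99, -1.05, -1.05 and -0.40, against -0.10, -0.14, 0.00, 0.29 and -0.21 with shEGR2_40.9). The effect was also higher on the PA-rich diet by 0.60 for Oas2, 0.54 for Usp18, 0.46 for Dhx58, 0.43 for Igtp and 0.41 for Zbp1, and by 0.49 for the kinesin gene Kif21b. None of these 6 passed the test on the control diet.

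The difference was negative for the clock repressor gene Nr1d2 (-0.95), Accsl (-0.85), the kinase gene Fyn (-0.76), Depp1 (-0.57), the death receptor gene Fas (-0.47) and Ch25h (-0.38). Fyn was higher on both diets and more so on the control diet, at 1.16 against 0.40. Without the control-diet array that stood apart the call of Ch25h ended (adjusted p = 0.0544).

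The EGR2 hairpins differed from each other on the PA-rich diet for 593 genes. Ryr1, at 0.44 (shEGR2_38.9 minus shEGR2_40.9), was the 1 gene among the 25 for which they did so. Groups of 3 arrays are too small for a test of single outlying arrays.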

How the results depend on the processing

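None of the changes of single genes recomputed here turned sign under any alternative run. For the 25 genes called with both hairpins, whose arrays did not overlap with PLKO, leaving out 1 array could not turn it. Splits of calls did turn, among them those for the difference between diets, from 613 higher and 541 lower to 536 and 635 with a renewed quantile normalization, for the hairpin difference, from 331 and 262 to 174 and 189 with scan batch as a fixed block, for both hairpins, from 18 and 7 to 3 and 4 with that block, for shGAL, from 981 and 966 to 887 and 988 with arrays centred on their median, and for the control diet, from 1275 and 1712 to 858 and 692 with only the arrays compared. The mean of both hairpins against PLKO called 132 genes, and 867 with array weights, 595 with only the arrays compared, 205 with the mean over probe sets and 71 with scan batch as a fixed block. The count with both hairpins was 25, and 186, 109 and 7 with array weights, only the arrays compared and the fixed block. The hairpin difference called 593 genes, and 2055, 1523 and 363 in the same 3 fits. On the control diet 2987 genes passed and 1550 with only the arrays compared, the difference between diets called 1154 and 1898 with array weights, and the difference from shGAL 1947, with 3527 under array weights and 3279 with only the arrays compared. With 1 array left out at a time the counts ran from 59 to 257 (mean), 8 to 43 (both hairpins), 302 to 928 (hairpin difference), 2053 to 3327 (control diet), 771 to 1603 (difference between diets) and 1292 to 2608 (shGAL). The replicate block, although the numbers do not pair the arrays, gave 144 genes in the mean and 26 with both hairpins. The cause of these shifts was not tested. The highest count of each range came without the array that stood apart. Filters on dim genes, other normalizations and scan batch as a random block kept each of these counts within 1.5 times. With 3 arrays a group, a change under 0.22 was not called in the mean comparison.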

Other observations

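Has2 and Dsc1 passed the test in the mean of both hairpins on the PA-rich diet without passing in each hairpin. Has2, which makes hyaluronan, was at 9.58, 9.81 and 9.69 with PLKO, 8.24, 8.50 and 8.56 with shEGR2_40.9 and 9.39, 9.26 and 9.37 with shEGR2_38.9. All EGR2 arrays were below PLKO, by -1.26 in shEGR2_40.9 and -0.35 in shEGR2_38.9, where limma's adjusted p was 0.374, and the hairpins differed by 0.91. Dsc1, a desmosomal cadherin of the upper epidermis, was at 7.28, 7.77 and 7.42 with PLKO, 8.23, 8.73 and 8.90 with shEGR2_40.9 and 8.24, 8.01 and 8.33 with shEGR2_38.9. Its arrays did not overlap with PLKO, and it passed with shEGR2_40.9 (1.13) but not with shEGR2_38.9 (0.70, adjusted p = 0.12).

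The Notch ligand gene Dll1 passed in the mean (-0.36) through shEGR2_40.9 (-0.73), while shEGR2_38.9 gave 0.00. The converse held for the protease inhibitor gene Serpina3n, at 0.08 with shEGR2_40.9 and 0.55 with shEGR2_38.9, and for Bnip3, a mitophagy receptor, at 0.33 and 0.52. Apol8 resembled Hmox1, with 1.24 in shEGR2_40.9 and -0.45 in shEGR2_38.9, each past the test.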
